A study of Mus musculus with 6 samples.

Results

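The genes described here are 10 genes of steroid hormone synthesis: those for enzymes that turn cholesterol into steroids, for the electron carriers that feed the mitochondrial enzymes, and for proteins that bring cholesterol into the cell and its mitochondria. They were chosen by name, as every probe set annotated to exactly 1 gene symbol that is Star, Cyp11a1, Cyp11b1, Cyp17a1, Cyp21a1, Hsd3b1, Fdx1, Fdxr, Tspo or Scarb1. Of the 10 genes, 9 had such a probe set, 18 probe sets in all of 45037 tested. Star, Cyp11a1, Tspo and Scarb1 had 3 each, Cyp21a1 had 2, and Cyp11b1, Cyp17a1, Hsd3b1 and Fdx1 had 1 each. Fdxr, the gene of ferredoxin reductase, carried no single-symbol probe set in the annotation used and was not analysed here.

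The arrays compared uterine horns, without cervix, of C57BL6J mice in 2 groups of 3 arrays. The SF1 group carried Pgrcre/+ together with SF1LsL/+, a Cre allele at the locus of the progesterone receptor and a transgene for SF1 that Cre switches on, so that SF1 is by design made in cells that express Pgr. The control group carried SF1LsL/+ without Cre, so both groups carried the transgene and only the SF1 group carried Cre at the Pgr locus. Expression of SF1, Cre and the altered Pgr locus therefore went together, and their parts in a difference cannot be told apart here. Each array held RNA pooled from 2 uteri, taken 2 weeks after a surgery whose kind the labels do not give, and the sources used here do not state the mice's age.

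Steroid synthesis starts when the StAR protein moves cholesterol to the inner mitochondrial membrane. There the side-chain cleavage enzyme, encoded by Cyp11a1, makes pregnenolone with electrons that ferredoxin reductase and ferredoxin pass on from NADPH. Enzymes of the endoplasmic reticulum and mitochondria then make progesterone, androgens, glucocorticoids and mineralocorticoids in adrenal cortex and gonads, where SF1 (encoded by Nr5a1) is known as an activator of many of these genes. The uterus is known mainly as a tissue that responds to steroids.

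Values are linear probe set intensities, and differences are SF1 minus control on the scale of log2(intensity + 16), which understates the change of dim probe sets. A probe set was called at an adjusted p under 0.05 in limma, with Benjamini-Hochberg adjustment over all 45037 tested probe sets. Array medians lay between 149.9 and 162.2 units. RNA quality was read from beta-actin, whose 3' over 5' intensity ratio was 2.34, 2.13 and 2.12 in SF1 replicates 1 to 3, against 2.58, 2.56 and 2.38 in control replicates 1 to 3. The groups did not overlap in that ratio. The same ratio of Gapdh, where they overlapped, was 1.66, 1.49 and 1.47 in SF1 and 1.70, 1.65 and 1.53 in control. The part of RNA quality in the results below was not tested. Neither probe set of Nr5a1 itself differed detectably (log2 differences of 0.00 and 0.08, limma adjusted p = 0.992 and 0.535), and whether they lie within the transgene is not known here. All 3 probe sets of Pgr fell in SF1, by 1.34, 0.90 and 0.79 on the log2 scale (limma adjusted p = 3.23e-05, 0.000189 and 0.0016).

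Of the 18 probe sets, 6 rose in SF1 and 0 fell, on 4 genes: Star (3 of 3 probe sets), Cyp11a1 (1 of 3), Fdx1 (1 of 1) and Tspo (1 of 3). The 12 probe sets that did not pass include all those of Cyp11b1, Cyp17a1, Cyp21a1, Hsd3b1 and Scarb1. Over all tested probe sets, 14.0% were called, 5.88% of all higher and 8.08% lower in SF1. The median log2 difference was 0.18 over the 18 probe sets and -0.07 over all tested probe sets. The SF1 and control arrays did not overlap for 9 of the 18 probe sets, where 36.7% of all tested probe sets did not overlap. In 8 of the 9 SF1 was higher, and in that direction the share over all tested probe sets was 12.1%. Probe sets of 1 gene read the same transcripts, so these counts are not counts of independent measurements.

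**Figure D1:**
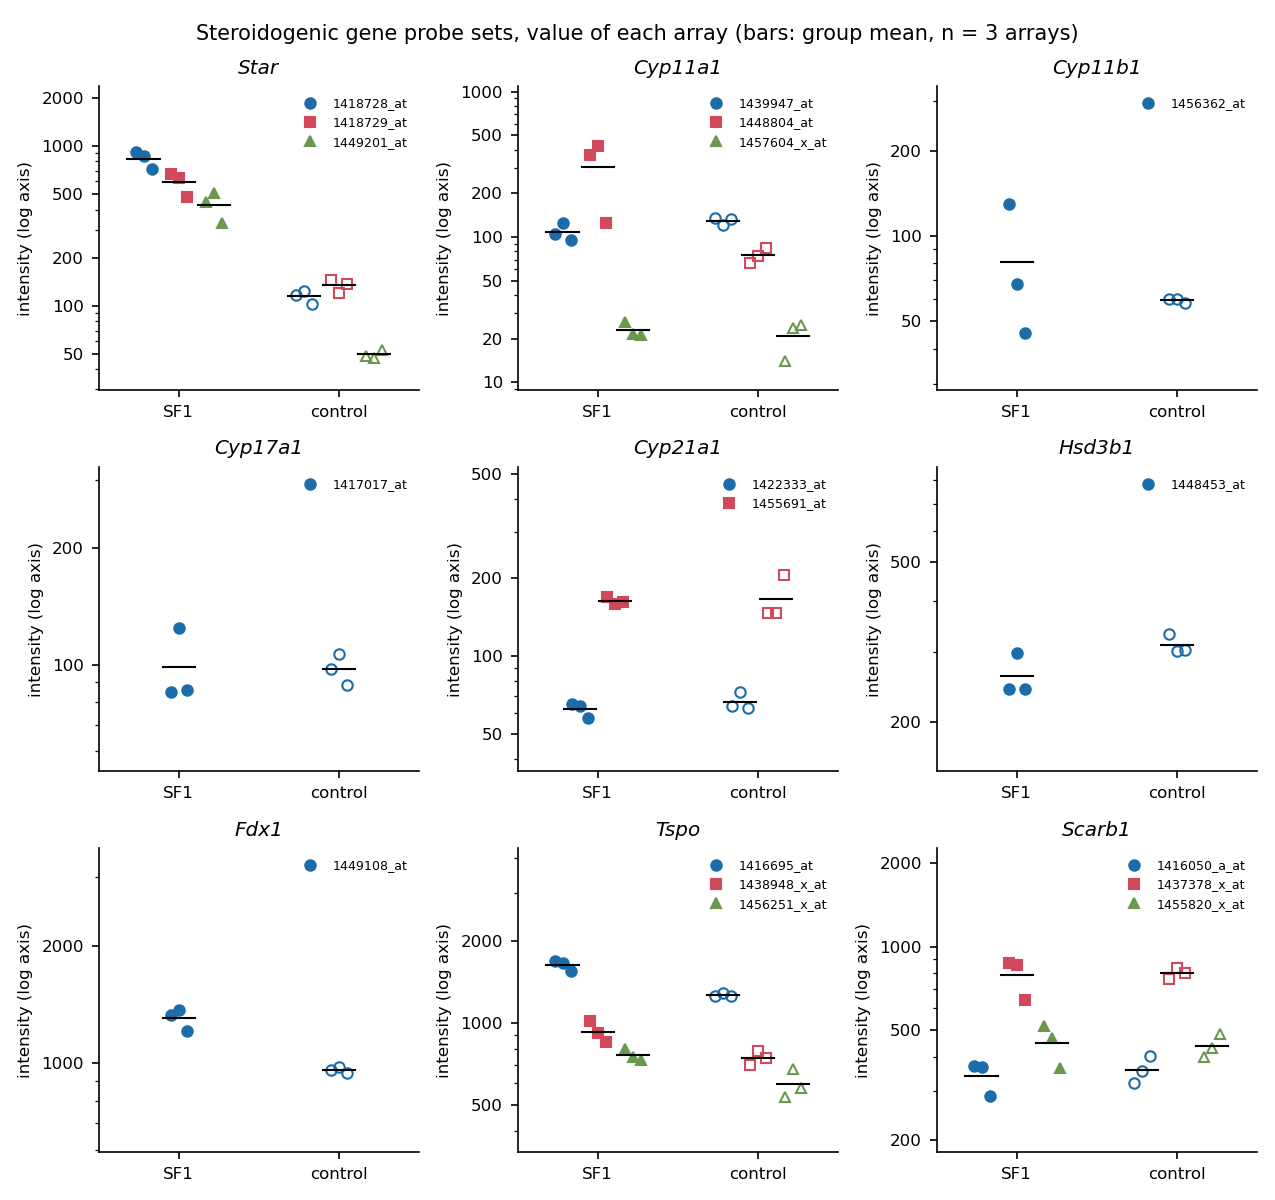
Intensity (log axis) of each of the 18 probe sets in each array, SF1 arrays filled on the left and control arrays open on the right of each panel, in the order of replicates 1 to 3, with the group mean as a bar (n = 3 arrays). All 3 Star probe sets and Cyp11a1 1448804_at had all SF1 arrays above all control arrays, and Cyp11a1 1448804_at read 124.8 in SF1 replicate 3 against 365.8 and 420.6 in the other SF1 arrays.

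The bases before the start sites of Cyp11a1 and Fdx1 are shown because both genes had a probe set called higher, for Cyp11a1 only 1448804_at. Both also act at the same mitochondrial step and have an entry in the promoter set used (RefSeq, GRCm38.p6). Star and Tspo, which also had probe sets called higher, had no entry in that set, so their promoters were not searched. Each run is the 250 bases before an annotated start, given 5′ to 3′ on the strand of the gene. Cyp11a1 has 2 annotated starts, the second of them inside the gene. Capitals mark AGGTCA, the core letters that SF1 and related nuclear receptors are known to bind.
Cyp11a1, first start, chr9:57997774-57998023, plus strand: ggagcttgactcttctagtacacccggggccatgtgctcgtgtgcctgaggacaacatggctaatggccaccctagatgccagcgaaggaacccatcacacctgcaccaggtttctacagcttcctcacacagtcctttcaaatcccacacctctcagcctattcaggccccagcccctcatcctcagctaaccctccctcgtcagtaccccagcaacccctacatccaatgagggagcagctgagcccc
Cyp11a1, second start, chr9:58014702-58014951, plus strand: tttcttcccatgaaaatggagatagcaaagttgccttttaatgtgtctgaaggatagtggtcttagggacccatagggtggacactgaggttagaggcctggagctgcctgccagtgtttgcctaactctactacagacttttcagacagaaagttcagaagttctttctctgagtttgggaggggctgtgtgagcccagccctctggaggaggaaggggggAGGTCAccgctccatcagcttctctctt
Fdx1, chr9:51963603-51963852, minus strand: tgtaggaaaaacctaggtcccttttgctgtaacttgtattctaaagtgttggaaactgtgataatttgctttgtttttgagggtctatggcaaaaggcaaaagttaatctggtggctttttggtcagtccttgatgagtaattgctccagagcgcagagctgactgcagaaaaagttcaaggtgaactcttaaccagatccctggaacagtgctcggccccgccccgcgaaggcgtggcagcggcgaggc
The letters TCAAGGTCA, CAAGGTCA, CAAGGCCA and AGGTCA were searched on both strands; the first contains the second, and both contain the last. Among the 5 windows of the 4 genes with an entry (Cyp11a1, Fdx1, Fdxr and Hsd3b1), the only match was AGGTCA before the second start of Cyp11a1, beginning 28 bases before it on the strand of the gene. Of 32851 RefSeq windows of the same length, 14.0% held AGGTCA, 1.33% CAAGGTCA, 1.99% CAAGGCCA and 0.387% TCAAGGTCA. A match of letters is a description, and a window without one says nothing about binding by SF1.

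Star, whose protein delivers cholesterol to the inner mitochondrial membrane, rose more than any other of these genes, on all of its probe sets. Star 1418728_at read 912.2, 862.8 and 720.3 in SF1 replicates 1 to 3, against 116.7, 124.2 and 102.1 in control replicates 1 to 3. All SF1 arrays were far above all control arrays, and replicate 3 was the lowest of the SF1 arrays. The means were 832 ± 99.6 in SF1 and 114 ± 11.2 in control (SD, n = 3 each), a log2 difference of 2.70 ± 0.11 (SE; 95% interval from 2.45 to 2.95, limma adjusted p = 4.84e-06). Star 1449201_at read 444.9, 507.8 and 330.7 in SF1, against 48.6, 47.3 and 53.0 in control, a difference of 2.74 ± 0.14 (limma adjusted p = 1.32e-05). Star 1418729_at read 664.5, 629.6 and 479.1 in SF1, against 145.2, 119.7 and 136.9 in control, a difference of 2.01 ± 0.13 (limma adjusted p = 3.48e-05). The annotation ties the 3 probe sets to 1 mRNA, and on each of them SF1 replicate 3 was the lowest of its group, while the highest was replicate 2 on 1449201_at and replicate 1 on the others. The control readings were not shown to be above background, so the size of these differences may be understated. All 3 kept their call whichever array was left out, with log2 differences between 1.92 and 2.91.

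Cyp11a1, the gene of the side-chain cleavage enzyme, rose on 1 probe set and not on the other 2, and it rose unevenly. Cyp11a1 1448804_at, which the annotation ties to a RefSeq mRNA, read 365.8, 420.6 and 124.8 in SF1 replicates 1 to 3, against 66.3, 74.4 and 84.1 in control replicates 1 to 3. The groups did not overlap, but SF1 replicate 3 lay much nearer to the control arrays than to the other SF1 arrays. The means were 304 ± 157 in SF1 and 75.0 ± 8.92 in control (SD, n = 3 each), a difference of 1.66 ± 0.36 (SE; 95% interval from 0.83 to 2.49, limma adjusted p = 0.0182). The call was lost without SF1 replicate 1 (1.45, limma adjusted p = 0.073), SF1 replicate 2 (1.35, 0.0581) or control replicate 1 (1.59, 0.0641), and the difference was 2.17 without SF1 replicate 3.

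The other Cyp11a1 probe sets, which the annotation ties to expressed sequence tags, showed no such pattern. Cyp11a1 1439947_at read 104.2, 124.0 and 95.2 in SF1, against 134.9, 121.0 and 133.9 in control, a difference of -0.24 ± 0.10 (SE; 95% interval from -0.47 to -0.01, limma adjusted p = 0.149). Its groups overlapped, since SF1 replicate 2 lay above control replicate 2. Cyp11a1 1457604_x_at read 26.2, 21.6 and 21.2 in SF1, against 14.1, 23.7 and 24.9 in control (0.09 ± 0.13, limma adjusted p = 0.666). Averaged over its 3 probe sets, Cyp11a1 had a difference of 0.50 ± 0.17 (limma adjusted p = 0.078 over 18193 genes) and was not called. By such gene means 8.46% of genes were called higher and 9.74% lower.

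Fdx1 encodes ferredoxin, the iron-sulfur protein that passes electrons to mitochondrial P450 enzymes such as the side-chain cleavage enzyme. Fdx1 1449108_at read 1326.7, 1367.9 and 1209.2 in SF1 replicates 1 to 3, against 961.7, 977.7 and 943.8 in control replicates 1 to 3. All SF1 arrays read higher than all control arrays, and SF1 replicate 3 was again the lowest of its group. The means were 1301 ± 82.3 in SF1 and 961 ± 17.0 in control, a difference of 0.43 ± 0.08 (SE; 95% interval from 0.25 to 0.61, limma adjusted p = 0.00826). The call held whichever array was left out (adjusted p at most 0.0363, limma).

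Tspo encodes the translocator protein of the outer mitochondrial membrane, which binds cholesterol. Whether steroid synthesis needs it is disputed. Tspo 1416695_at read 1681.1, 1659.7 and 1541.6 in SF1, against 1248.4, 1282.4 and 1255.7 in control, a difference of 0.36 ± 0.08 (SE; limma adjusted p = 0.0144). Tspo 1438948_x_at read 1017.7, 914.8 and 850.1 in SF1, against 700.3, 784.9 and 743.0 in control (0.31 ± 0.09, limma adjusted p = 0.0566). Tspo 1456251_x_at read 802.8, 750.4 and 727.6 in SF1, against 534.9, 678.5 and 574.1 in control (0.35 ± 0.10, limma adjusted p = 0.0539). On all 3 probe sets the groups did not overlap and the differences were of like size, but only 1416695_at passed the test. The call of Tspo 1416695_at was lost without SF1 replicate 1, SF1 replicate 2 or control replicate 1 (adjusted p between 0.051 and 0.0573). The mean over the 3 probe sets was called (0.34 ± 0.08, limma adjusted p = 0.0189).

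Tspo is also known to be expressed in macrophages, and macrophage markers moved with the groups. Of 8 macrophage markers 7 rose, where 8.45% of all genes did with 1 probe set per gene, among them Aif1 (1.45, limma adjusted p = 0.000651), and 3, 4 and 5 rose without SF1 replicate 1, SF1 replicate 2 and control replicate 2. Their summed intensity was between 7172 and 9026 in SF1 arrays and between 3675 and 5530 in control arrays. Its part in the difference of Tspo was not tested. In bulk tissue, more cells of a type and more RNA per cell cannot be told apart.

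Scarb1, the gene of the receptor SR-BI that takes up cholesteryl esters from high-density lipoprotein, did not differ detectably. Scarb1 1437378_x_at read 875.1, 856.5 and 639.3 in SF1, against 762.5, 835.4 and 803.2 in control (-0.03 ± 0.12, 95% interval from -0.31 to 0.25, limma adjusted p = 0.889). Scarb1 1455820_x_at read 516.4, 468.1 and 362.2 in SF1, against 397.2, 428.0 and 482.8 in control (0.03 ± 0.13, limma adjusted p = 0.899). Scarb1 1416050_a_at read 368.2, 367.8 and 287.8 in SF1, against 320.5, 354.9 and 401.6 in control (-0.07 ± 0.12, limma adjusted p = 0.72). The 95% intervals of the 3 probe sets lay between 0.785 and 1.26 times the control level. On all 3, SF1 replicate 3 read lowest of all 6 arrays.

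The enzymes after side-chain cleavage gave no call. Hsd3b1 encodes a 3β-hydroxysteroid dehydrogenase, which makes progesterone from pregnenolone. It read 242.5, 297.9 and 241.4 in SF1, against 332.2, 300.8 and 301.9 in control. The SF1 arrays were all below the control arrays, replicate 2 by a small margin, and the difference of -0.25 ± 0.10 did not pass the test (SE; 95% interval from -0.48 to -0.02, limma adjusted p = 0.136). Cyp17a1, for the 17α-hydroxylase and 17,20-lyase on the way to androgens, read 84.8, 124.4 and 85.9 in SF1, against 97.6, 106.5 and 88.8 in control (-0.01 ± 0.14, 95% interval from -0.32 to 0.30, limma adjusted p = 0.982).

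Cyp21a1 encodes the 21-hydroxylase and Cyp11b1 the 11β-hydroxylase, the last enzymes of glucocorticoid synthesis. Cyp21a1 1422333_at read 65.2, 64.2 and 57.4 in SF1, against 64.1, 72.6 and 63.0 in control (-0.08 ± 0.08, limma adjusted p = 0.576). Cyp21a1 1455691_at read 169.0, 158.2 and 160.7 in SF1, against 145.8, 146.4 and 205.1 in control (-0.01 ± 0.13, limma adjusted p = 0.968). Both overlapped between the groups. Cyp11b1 1456362_at read 130.0, 67.8 and 45.7 in SF1, against 60.0, 60.1 and 57.9 in control, so that 1 SF1 array stood high, another low, and the control arrays close together. Its difference of 0.27 ± 0.26 had a wide interval, from -0.32 to 0.86 (limma adjusted p = 0.509), and was -0.07 without SF1 replicate 1.

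The table gives no detection calls, so these dim readings do not show whether a transcript was present. Y-linked genes, which have no target in female tissue, read between 21.0 and 101.4 units on 5 of 6 probe sets and between 193.0 and 318.1 on that of Sry. None of the 6 Y-linked genes was called (1 without control replicate 3). Their summed intensity was 522.3, 533.1 and 527.6 in SF1 arrays, against 605.0, 632.8 and 587.4 in control arrays, a gap that came mostly from Sry (-0.36). Probe sets ending in _x_at can also bind related transcripts, and those of the Cyp11b, Cyp21 and Hsd3b families could read close relatives.

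**Figure D2:**
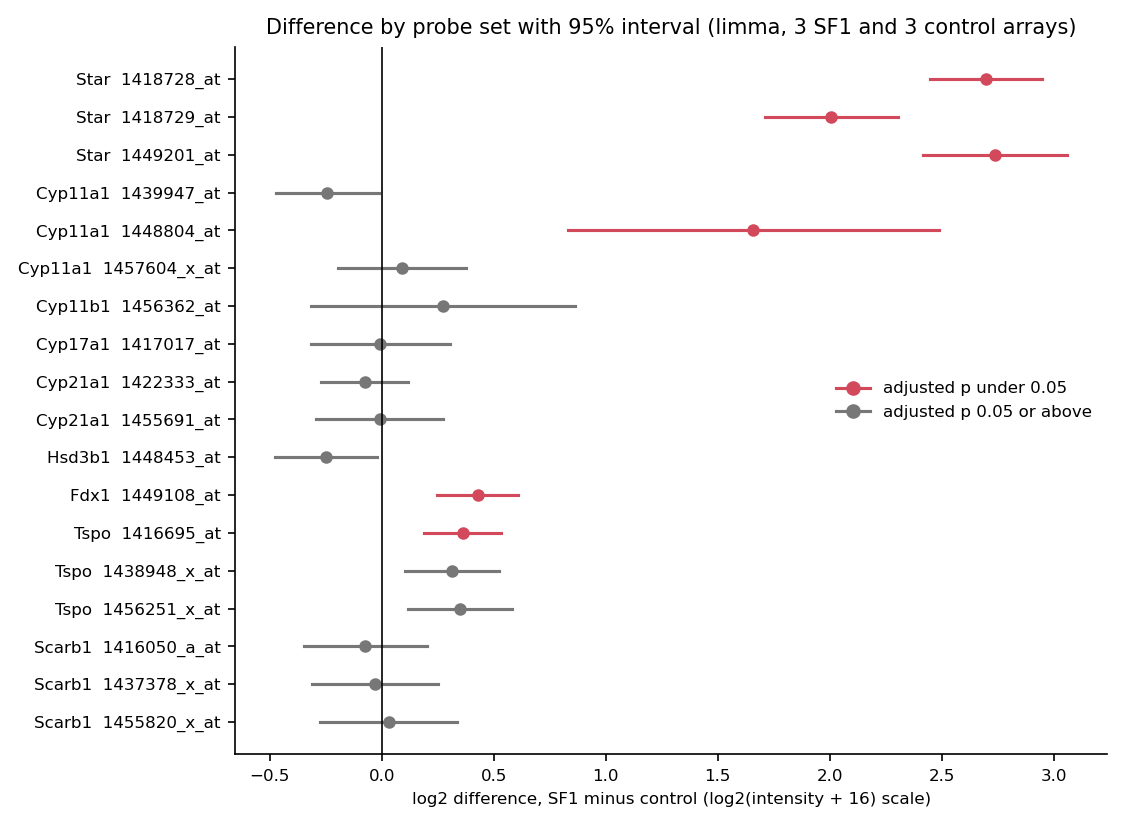
Log2 difference, SF1 minus control, of each of the 18 probe sets with its 95% interval (limma on log2(intensity + 16), 3 arrays per group), red where the adjusted p was under 0.05. The Star probe sets lie between 2.01 and 2.74, Cyp11a1 1448804_at at 1.66 with the widest interval of the 18, and Fdx1 and Tspo between 0.31 and 0.43.

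Within the SF1 group most probe sets shared their lowest array. SF1 replicate 3 gave the lowest SF1 value for 16 of the 18 probe sets and the highest for 0. It was the lowest for 31.7% of all tested probe sets and for 44.1% of those called higher in SF1. The exceptions were Cyp17a1, lowest in SF1 replicate 1, and Cyp21a1 1455691_at, lowest in SF1 replicate 2. Replicate 1 gave the highest SF1 value for 12 probe sets and replicate 2 for 6. The median SD of log2 values over the 18 probe sets was 0.172 in SF1 and 0.102 in control, where it was 0.1 and 0.108 over all tested probe sets. The summed intensity of 5 fat cell markers was also lowest in SF1 replicate 3, at 9057, 6985 and 3561 in SF1 replicates 1 to 3, against 9483, 11899 and 10722 in control replicates 1 to 3. Of the 5 only Retn was called, lower in SF1 (limma adjusted p = 0.0492, against 8.11% of all genes called lower with 1 probe set per gene). With an array left out, the number called was between 0 (without SF1 replicate 2, SF1 replicate 3, control replicate 2 or control replicate 3) and 2 (without SF1 replicate 1), and it was 0 after either scaling. Of 11 marker lists, 6 had their lowest SF1 sum in replicate 3, those of fat cells, macrophages, T cells, endothelium, uterine epithelium and uterine stroma. The lowest was replicate 1 for 3 lists and replicate 2 for 2, and mast cell markers (2812, 2790 and 3192 in SF1) and oviduct and ciliated cell markers (3927, 3438 and 4894 in SF1) were highest in replicate 3. The part of these in the low values of SF1 replicate 3 was not tested.

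Other genes with the most similar pattern over the 6 arrays were named by Pearson correlation of log2 values, as a description, among probe sets with 1 symbol and a mean of at least 100 units. For Star 1418728_at they were Armcx2 (r = 1.00), Kcng4, Akr1b10, Got1 and Mycbp, all with r of at least 0.999 after rounding. Kcng4, a potassium channel subunit gene, read 292.4, 290.7 and 265.0 in SF1, against 46.1, 51.2 and 43.5 in control (difference of 2.25). Got1, an aspartate aminotransferase gene, read 339.4, 340.4 and 295.7 in SF1, against 126.6, 137.3 and 120.8 in control (1.24). With groups this far apart, the gap between them weighs heavily in such a correlation. For Cyp11a1 1448804_at, with its low value in SF1 replicate 3, they were Ifi209 (0.997), Ndufs4, Ccn1, Limd2 and Tefm (0.993). Ndufs4, Ccn1 and Tefm were not called (limma adjusted p = 0.0746, 0.083 and 0.151). As the highest of 23843 probe sets compared over 6 arrays, such values of r say little by themselves. Ifi209, an interferon-inducible gene, read 271.8, 288.7 and 150.04 in SF1, against 110.4, 126.5 and 124.9 in control (0.84).

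Around these genes, other enzymes of steroid synthesis gave no call. Here and below each gene is represented by its brightest probe set, where 8.45% of 18193 genes were called higher and 8.11% lower. Of 9 measured enzymes (among them Cyp11b2, Hsd3b2, Hsd3b3, Hsd17b1 and Hsd17b3) 0 rose and 0 fell, with a median difference of -0.05. Their differences ran from -0.33 for Hsd3b3 (limma adjusted p = 0.0954, and 0.0449 without SF1 replicate 2) to 0.20 for Hsd17b12 (adjusted p = 0.253). Cyp11b2, Hsd3b2 and Hsd17b3 read at most 81.6 units in any array, no brighter than Y-linked genes, and Hsd3b3 and Hsd17b1 at most 148.1. For such dim probe sets, a missing call does not show that a transcript was present and unchanged. Cyp19a1, the gene of aromatase, carried no single-symbol probe set and was not analysed here.

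Among the other mitochondrial P450 genes, whose enzymes also take electrons from ferredoxin, 1 of 4 fell and 0 rose. Cyp27a1, the sterol 27-hydroxylase gene, read 747.2, 629.0 and 736.1 in SF1 replicates 1 to 3, against 1199.6, 1397.9 and 1171.4 in control replicates 1 to 3. The groups lay far apart, in the direction opposite to Fdx1 and Cyp11a1 1448804_at, with a difference of -0.82 ± 0.10 (limma adjusted p = 0.00115). Its call held whichever array was left out. Cyp11b2, Cyp24a1 and Cyp27b1 were not called (differences of -0.12, 0.01 and 0.06), and all were dim, at most 101.1 units in any array.

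Of 8 measured electron donors and redox partners, 2 rose and 1 fell. Me1, the gene of malic enzyme, which makes NADPH, rose to 1607.0, 1416.5 and 1061.6 in SF1, against 524.2, 719.5 and 827.3 in control (0.97 ± 0.19, limma adjusted p = 0.0111). H6pd, which makes NADPH in the endoplasmic reticulum, passed by little (0.38, adjusted p = 0.0499), a call that held in 1 of 6 fits with an array left out. Cyb5r3, a cytochrome b5 reductase gene, fell by 0.56 on the log2 scale (adjusted p = 0.00231), in all 6 of those fits.

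Of 15 START domain and mitochondrial import genes, 1 rose and 1 fell, with a median difference of 0.07. Vdac1, the gene of an outer membrane channel, rose by 0.32 (limma adjusted p = 0.0248), and Stard6, a relative of Star, fell by 0.41 on the log2 scale (adjusted p = 0.0191). Stard6 was dim, at 86.6, 97.0 and 92.3 in SF1, against 113.4, 136.7 and 132.8 in control. Sry, which has no target in female tissue, read higher than this and also had a difference of -0.36. With an array left out, the call of Vdac1 held in 1 of 6 fits and that of Stard6 in 2. Stard4, a cytosolic sterol carrier gene and another relative of Star, read 685.6, 594.2 and 519.1 in SF1, against 490.3, 442.8 and 439.6 in control. Its groups did not overlap, and its difference of 0.37 missed the threshold (adjusted p = 0.0566). No relative of Star among the 6 measured (Stard3, Stard4, Stard5, Stard6, Stard7 and Stard10) had a difference above that of Stard4.

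Of 14 measured genes of cholesterol uptake, storage and release, 2 rose and 0 fell, with a median difference of 0.02. Nceh1, the gene of a hydrolase that frees cholesterol from its stored esters, read 1107.6, 969.6 and 1067.9 in SF1, against 556.6, 545.3 and 571.6 in control. The groups were far apart (0.89 ± 0.08, limma adjusted p = 0.000192). Apoe, for apolipoprotein E, read 3828.9, 3940.6 and 3986.0 in SF1, against 2825.1, 2351.4 and 2583.7 in control (0.60 ± 0.09, adjusted p = 0.00263). Macrophages are known to express Apoe, and their markers moved with the groups as given for Tspo. The part of macrophages in the differences of Nceh1 and Apoe was not tested. Cd36, for a fatty acid and lipoprotein receptor, read 804.8, 847.0 and 366.0 in SF1, against 1032.0, 1240.4 and 1190.8 in control, and missed the threshold (-0.85, adjusted p = 0.0759). It was called without SF1 replicate 3 (-0.47, adjusted p = 0.0347), the array with the lowest sum of fat cell markers, whose part was not tested. The calls of Nceh1 and Apoe held whichever array was left out.

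Of 17 measured regulators of steroid synthesis, 3 rose and 2 fell. Nr0b1, for the repressor DAX1 and a known target of SF1, read 1324.7, 1370.3 and 1172.1 in SF1, against 21.1, 26.2 and 23.7 in control. The difference was 5.04 ± 0.09 (limma adjusted p = 7.52e-08), above that of every gene described here. Gata6, for a transcription factor of adrenal and gonadal cells, read 806.6, 728.0 and 673.1 in SF1, against 356.1, 265.3 and 384.1 in control (1.11 ± 0.14, adjusted p = 0.00102). Prkar2b, for a regulatory subunit of protein kinase A, rose by 0.55 (adjusted p = 0.0411), a call that held in 2 of 6 fits with an array left out. Nr5a2, the close relative of Nr5a1, fell by 0.95 on the log2 scale (adjusted p = 0.000377). It was dim, at 94.1, 103.4 and 84.0 in SF1, against 215.4, 189.8 and 182.7 in control. Creb1 fell by 0.33 (adjusted p = 0.0267), a call that held in 1 of 6 such fits. The genes of the hormone receptors Mc2r and Fshr, through which ACTH and FSH stimulate steroid synthesis, were not called (-0.01 and -0.12). Both were dim, at most 96.6 units in any array.

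**Figure D3:**
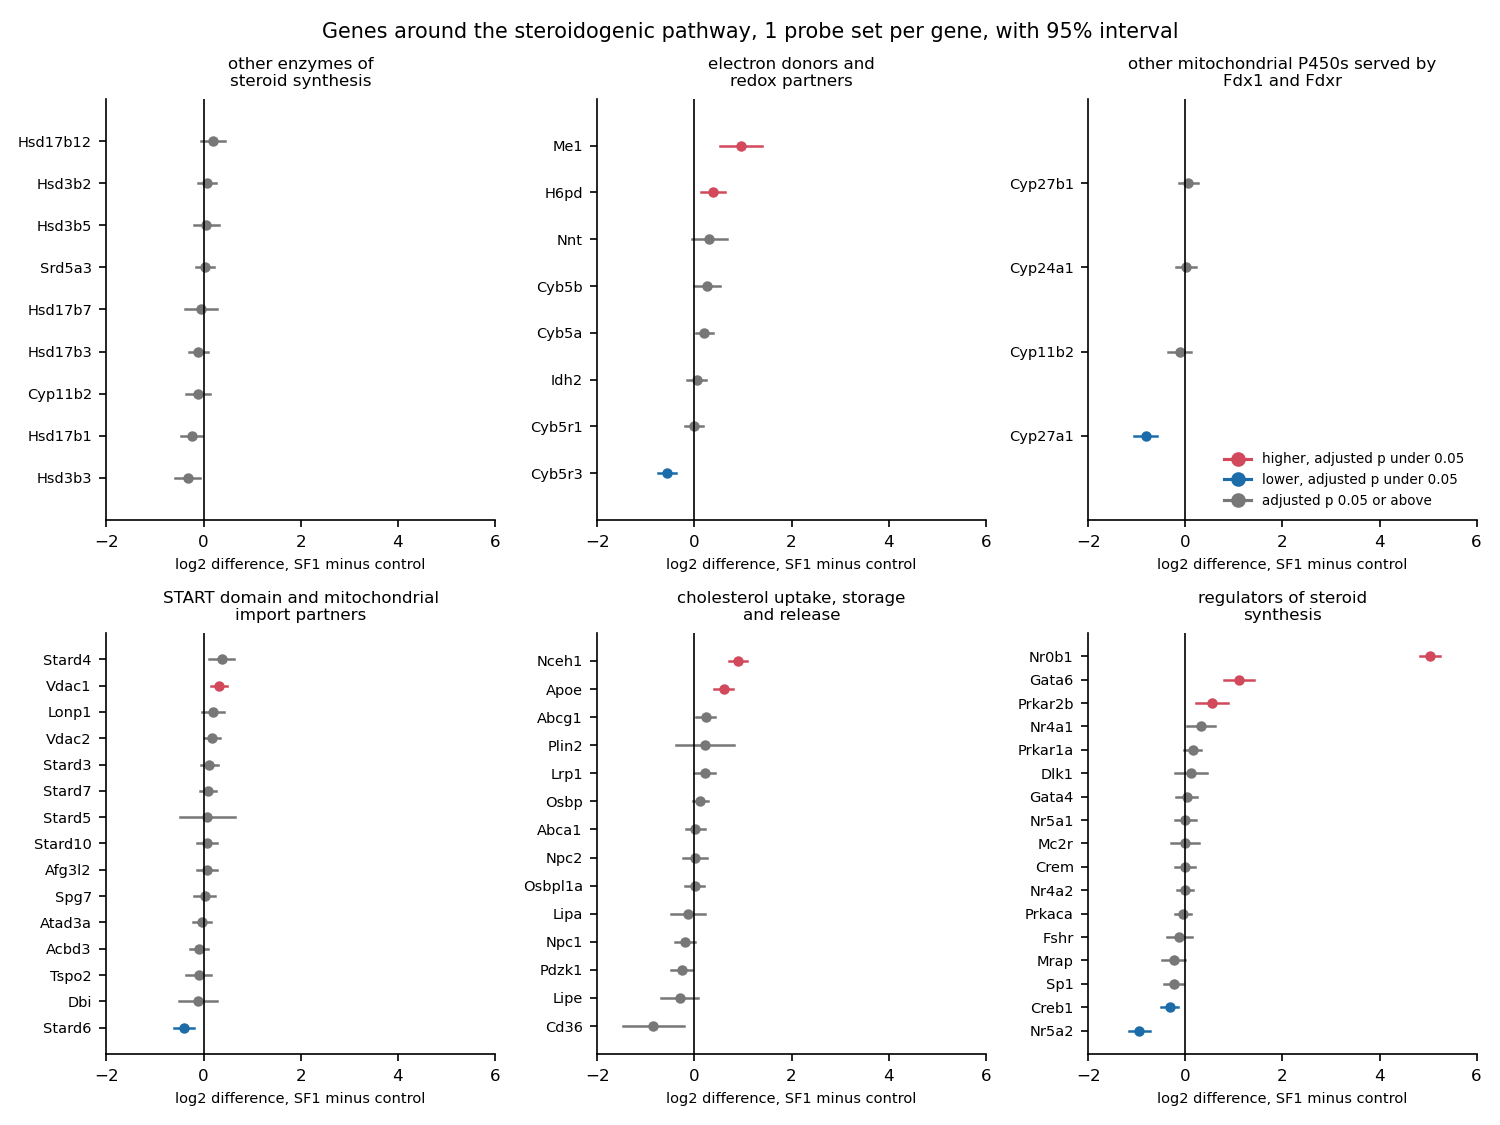
Log2 difference, SF1 minus control, with 95% interval for the genes of the 6 lists around the pathway, 1 probe set per gene, red where called higher and blue where called lower. Most genes lie near 0, and Nr0b1 at 5.04, Gata6 at 1.11, Me1 at 0.97 and Nceh1 at 0.89 stand out to the right, Nr5a2 at -0.95 and Cyp27a1 at -0.82 to the left.

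Ovarian tissue is known to express several of these genes strongly, and it lies next to the uterine horn. Of 10 measured ovary markers 2 rose and 1 fell (2 fell without SF1 replicate 2), and their summed intensity was 2962, 3228 and 3112 in SF1, against 3313, 3242 and 3312 in control. That sum was lower in every SF1 array with Foxl2 in it. Without Foxl2 the other 9 markers summed to 2219, 2395 and 2304 in SF1, against 1414, 1527 and 1504 in control, higher in every SF1 array. Without Foxl2, Inha and Inhbb, the genes that were called, the other 7 summed to 633.6, 745.0 and 686.7 in SF1, against 757.8, 808.9 and 807.1 in control. Taking out the called genes fixed in advance that none of the other 7 was called. Among those, Bmp15, Oosp1, Fshr, Zp2 and Zp3 read at most 100.3 units in any array, as dim as the Y-linked genes other than Sry. These smaller sums were added after the values were seen, and the part of ovarian RNA in the results was not tested. The oocyte genes Gdf9, Bmp15, Zp2, Zp3 and Oosp1 were not called, with differences between -0.16 and -0.02. Amh and Fshr were not called either (-0.33 and -0.12). Inhbb (1.29, limma adjusted p = 2.07e-05) and Inha (0.78, adjusted p = 0.000505), for inhibin subunits, rose, and Foxl2, also a gene of uterine stroma, fell by 1.17 on the log2 scale (adjusted p = 5.41e-05).

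Epithelial, stromal and smooth muscle markers all read between 538.2 and 12487 units. With no other tissue to compare, such levels do not identify the uterus, which is given by the labels. Of 5 epithelial markers 2 rose and 1 fell, but 1 rose and 0 fell without SF1 replicate 1, and 0 fell without SF1 replicate 3, control replicate 1 or control replicate 3. They summed to between 15660 and 17238 in SF1 and between 13826 and 14904 in control. Stromal markers, Pgr among them, summed to between 14690 and 15531 in SF1 and between 22385 and 23181 in control, with 5 of 6 called lower. Of 6 smooth muscle markers 0 were called, and of 3 trophoblast and decidua markers 0. Of 4 oviduct and ciliated cell markers, the ciliated cell genes Dynlrb2 (4.63), Rsph4a (3.53) and Foxj1 (0.88) rose, and Ovgp1, an oviduct secretory gene, fell by 0.73 on the log2 scale. T cell markers (3 of 5 called higher) and mast cell markers (4 of 7 called higher), cells for which expression of Cyp11a1 is known in mice, summed to between 1442 and 1660 and between 2790 and 3192 in SF1, against between 842 and 1012 and between 1819 and 2022 in control. Their part in the difference of Cyp11a1 was not tested. Endothelial markers, of which 6 of 6 were called lower, summed to between 2558 and 3021 in SF1 and between 4326 and 4477 in control. With an array left out, between 4 and 5 endothelial markers were called lower. Between 2 and 3 T cell markers and between 3 and 4 mast cell markers were then called higher.

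**Figure D4:**
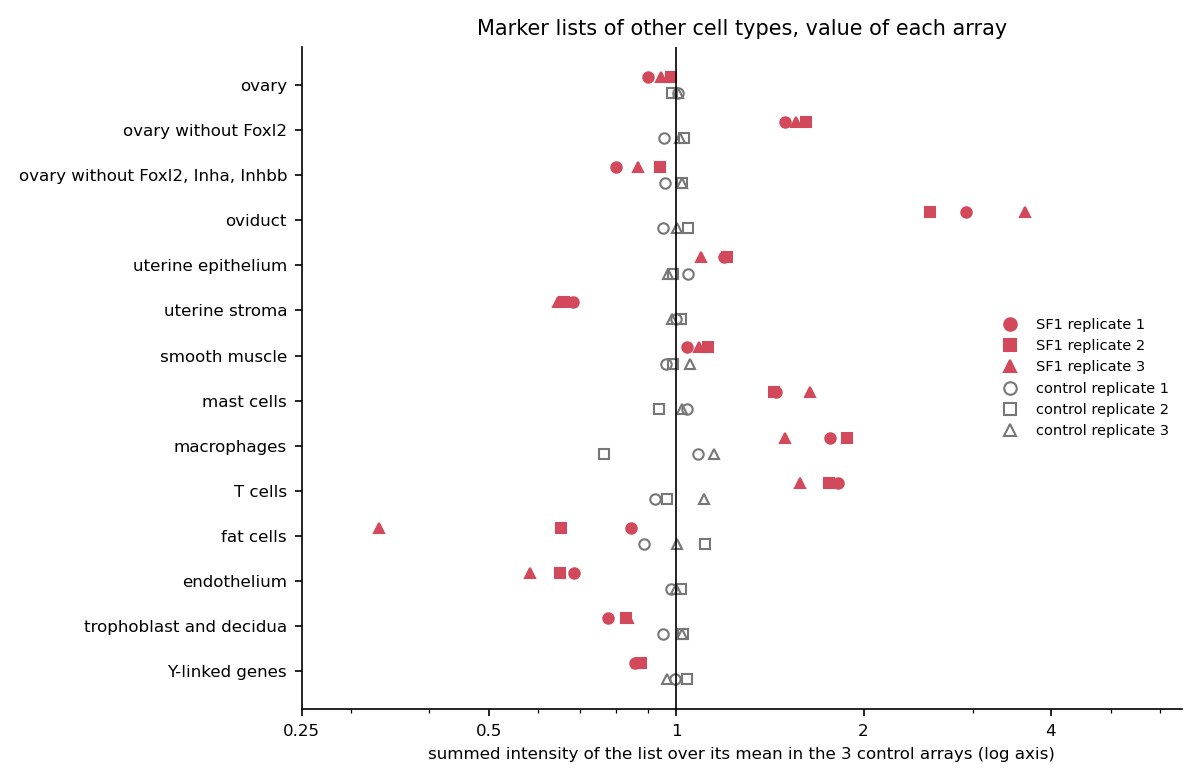
Summed intensity of each marker list in each array, divided by the list's mean in the 3 control arrays (log axis), SF1 arrays filled and control arrays open. The sum over all 10 ovary markers lies slightly lower in SF1 arrays than in control arrays. That sum lies higher in SF1 arrays without Foxl2 and lower without Foxl2, Inha and Inhbb. The sums without these called genes were added after the values were seen. Macrophage, mast cell and T cell markers lie above their control values, and stromal and endothelial markers below.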

How the data were processed

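Per the labels, total RNA was measured on a 1-colour Affymetrix GeneChip mouse array. The authors deposited 1 intensity per probe set and array, on a linear scale. Their background correction, normalization and summarization are not given in the sources used here, and matter most where a probe set is dim. The table held 45101 probe sets, of which 64 controls were dropped. Names came from a platform annotation table, and all 18 probe sets of the described genes carried a symbol that is current by gene ID.

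Deposited intensities were transformed as log2(intensity + 16) and fitted with limma 3.58.1 (lmFit, eBayes) in R 4.3.3 over 45037 probe sets, with no covariate. Adjusted p-values come from this fit unless stated otherwise. Those given for gene means, with an array left out or under another alternative come from a refit under that setting. Simulated arrays with known changes served to test the fit. Figures and tables used Python 3.11.15 with pandas 2.3.3 and matplotlib 3.10.9.

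The genes, the lists around them and the marker lists were chosen with earlier results of these data known. The naming rule took every described gene, up to 3 called genes in each direction per pathway list, and the 5 genes with the most similar pattern to Star and Cyp11a1. Uncalled list genes and single marker genes named beside these were chosen after their values were seen. Alternatives were pseudocounts of 1 and 64, quantile normalization, median centring, a mean of at least 100 units, leaving out each array, array weights, a block for the replicate number, trended and robust eBayes, gene means, and an adjusted p under 0.01. Precision is limited by the 3 arrays per group. Each array is a pool of 2 uteri per the labels, which do not say how pools were handled in the laboratory, so p-values measure the spread between pools.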

Additional observations from a re-analysis of the deposited data

How the results depend on the processing

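The number of called probe sets among the 18 was 6, and lay between 4 and 8 under all alternatives (5 with the replicate block). Over all tested probe sets 6291 were called, but 4095 with the replicate block, 2975 at an adjusted p under 0.01, and between 3771 (without SF1 replicate 1) and 4761 with 1 array left out (4150 without control replicate 1). The block is not a pairing: arrays with the same number deviated from their group means with correlations of -0.0633, -0.101 and -0.184. With the block, Tspo 1416695_at was no longer called (adjusted p = 0.0522). Cyp11a1 1448804_at was not called with eBayes trend and robust (0.0909). The other 2 Tspo probe sets were called with a pseudocount of 64, either scaling, the brightness filter, trend and robust, or array weights. Both scalings moved the median difference by about 0.05, and the cause of these changes was not tested. None of the 6 called probe sets changed sign under any alternative. Uncalled differences near 0 did, none of them called after the change. Cyp17a1 was 0.049 after quantile normalization and 0.0452 after median centring, and Scarb1 1437378_x_at was 0.0205 after median centring. Cyp21a1 1455691_at was 0.0383 after quantile normalization, 0.0416 after median centring and 0.0235 with array weights. With 1 array left out, Cyp17a1 ran from -0.16 to 0.0763, Cyp21a1 1455691_at from -0.0856 to 0.14, Scarb1 1416050_a_at from -0.15 to 0.0401, 1437378_x_at from -0.11 to 0.11 and 1455820_x_at from -0.0748 to 0.17, Cyp11b1 from -0.067 to 0.55, Cyp11a1 1457604_x_at from -0.0508 to 0.17 and Nr5a1 1418315_at from -0.0537 to 0.0848. With gene means 3 genes were called, against 4 with the brightest probe set.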
